A study of Mus musculus with 3 samples.

Results

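The report covers 40 mouse genes of protein entry into the endoplasmic reticulum (ER), signal peptide cleavage and N-glycosylation, chosen as a named list and matched by symbol to 40 of the 37620 gene identifiers in the deposited tables. They were measured by mRNA sequencing in primary hepatocytes of C57BL/6 mice at passage 1, isolated by collagenase perfusion and plated on gelatin. Cells in 2 libraries had been given tauroursodeoxycholic acid (TUDCA), a taurine-conjugated bile acid also used as a chemical chaperone, at 100 mM for 24 h as labelled, a unit that could not be checked here, and cells in 1 library had been given the solvent DMSO, for which the labels give no time. The series mentions 2 independent experiments without saying which library came from which. The replicate spread therefore may be technical, p-values measure only that spread, and any difference in culture time cannot be told apart from the treatment. The comparison asks which genes differ with TUDCA relative to DMSO.

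Most secreted and membrane proteins of the hepatocyte enter the ER while they are still being made. The signal recognition particle (SRP) binds the emerging signal sequence and docks at its receptor, the chain passes through the Sec61 channel, signal peptidase removes the signal, and the oligosaccharyltransferase (OST) moves a preassembled sugar tree from a dolichol lipid onto asparagine residues. Glucosidases then trim the glucoses from that tree, which passes the protein to the lectin chaperones of the ER lumen. Many genes of this machinery are known targets of the unfolded protein response factors XBP1 and ATF6.

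The values are RPKM, reads scaled to gene length and to library total, and the totals behind them were 9757547 and 10575699 reads in the TUDCA libraries and 10774289 reads in the DMSO library. Hepatocyte genes were abundant, with Alb at 7177 and 6111 RPKM with TUDCA and 5771 RPKM in DMSO. The summed level of 10 hepatocyte markers, most of it Alb, was 11431 and 10339 RPKM with TUDCA and 9819 RPKM in DMSO. Of the 10, 8 were higher in both TUDCA libraries, against 40.5% of all genes tested, and 1 (Apoa1) was lower in both, against 30.4%. Hnf4a was the only marker called (higher, log2 fold change 0.76, limma adjusted p = 0.0123). Of the 7 macrophage and Kupffer cell markers all were detected, with sums of 223.6 and 233.9 RPKM with TUDCA and 235.8 RPKM in DMSO. Cd68 made up most of these sums, at 154.3 and 169.4 RPKM with TUDCA and 170.4 RPKM in DMSO. Of the 7, 5 were higher in both TUDCA libraries, against 40.5% of all genes tested, and 2 were lower in both, against 30.4%. The sums stayed under 10 RPKM in every library for 6 endothelial, 7 stellate or fibroblast and 4 lymphocyte markers. Cd3e and Cftr were at 0 in all 3 libraries, and 5 biliary markers summed to 36.3 and 49.2 RPKM with TUDCA and 31.7 RPKM in DMSO. The part of these levels in the results below was not tested. In RNA from whole cultures, fewer cells of a type and less RNA per cell cannot be told apart.

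Tests were run on log2(RPKM + 1) with limma over the 11300 genes whose mean reached 1 RPKM, a filter that all 40 genes passed. None of the 40 was called lower or higher at an adjusted p under 0.05, against 0.876% of all genes called lower and 1.77% called higher. At an unadjusted p under 0.05, Sec61a1 and Srpr were lower and none was higher, 2 of 40 against 4.19% of all genes that were lower at that level. The voom fit on whole reads also called none of the 40 and had 2 at an unadjusted p under 0.05. The 95% interval of the log2 fold change, which rests on a spread pooled over genes of similar level, had its lowest bound at -0.95, for Alg14, and reached 1 only for Srp54a (upper bound 1.09). In the voom fit, which weights genes by their reads, both intervals were wider, -1.14 to 0.22 for Alg14 and -0.10 to 1.74 for Srp54a. Those of the other 38 genes lay between -1 and 1. The reads used were the smallest whole numbers that can give the RPKM values. A gene may hold a multiple of them, in which case its voom interval is wider than its reads warrant.

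Most of the 40 genes sat a little below DMSO. Both TUDCA libraries were lower than DMSO for 23 of the 40, against 30.4% of all genes tested, and both were higher for 4, against 40.5%. For the other 13 genes the DMSO value lay between those of the TUDCA libraries. The median log2 fold change was -0.13 over the 40 genes (-0.09 in TUDCA replicate 1 and -0.19 in TUDCA replicate 2) and 0.04 over all genes tested. With median centring it was -0.21, where all genes had -0.04. The 40 genes were mostly abundant, 35 of them above the median level of the genes tested. Their median level was 63.4 RPKM, against 15.4 RPKM for all genes tested. Among the 8559 genes of at least 5 RPKM the median log2 fold change was 0.02, but that cut does not match the 40 genes in level. The part of level in these contrasts was not tested. Both TUDCA libraries are set against the same single DMSO library, whose own error was not measured.

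**Figure D1:**
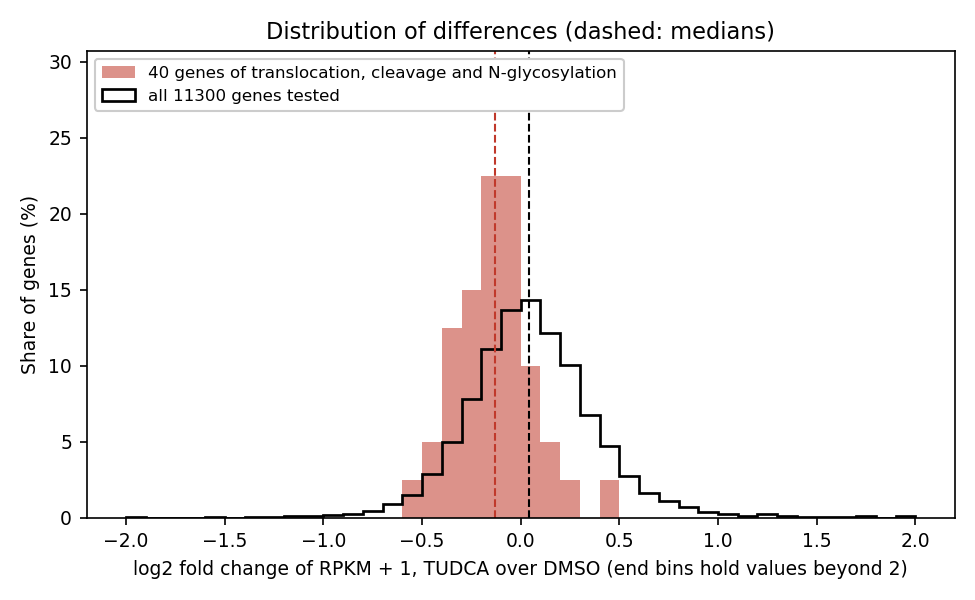
Share of genes (%) by log2 fold change of RPKM + 1, TUDCA over DMSO, for the 40 genes (red) and all 11300 genes tested (black outline), in bins of 0.1. The dashed lines mark the medians of -0.13 and 0.04, and the 40 genes run from -0.53 to 0.46.

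The promoters are shown because many genes of this machinery are known targets of XBP1 and ATF6, which was not tested here for the 40 genes. RefSeq start-site windows (GRCm38.p6, 250 bases before to 50 after the start) were in the table used for 30 of the 40 genes and were searched on both strands. Sec61a1, Ssr2 and Dpagt1 were not among the 30. The ER stress element ERSE, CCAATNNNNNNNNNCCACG, was in none of the 30 and in 0.137% of 27025 genes. The element UPRE, TGACGTGG, was also in none of the 30 and in 0.714% of all genes. ERSE-II, ATTGGNCCACG, was in the window of Krtcap2 alone (0.0444% of all genes), at bases 18 to 28 after a start site. The ends of these elements taken alone, a search added after the data were seen, were common in the windows. CCACG was in 20 of 30 windows, against 35.5% of all genes, and CCAAT was in 16 of 30, against 41.1%, with no adjustment for base composition. Both letter strings also occur inside the longer motifs. The sequences below are the Krtcap2 match and the 250 bases upstream of Srpr, Srprb, Ssr1 and Alg14, which have the lowest log2 fold changes among the 30 genes. Each is written on the strand of its gene, with the ERSE-II match in capitals for Krtcap2 and CCACG and CCAAT on either strand in capitals for the others.
Krtcap2 (chr3:89246481-89246509, plus strand): gggacacggATTGGACCACGgacggggcg
Srpr (chr9:35210953-35211202, plus strand): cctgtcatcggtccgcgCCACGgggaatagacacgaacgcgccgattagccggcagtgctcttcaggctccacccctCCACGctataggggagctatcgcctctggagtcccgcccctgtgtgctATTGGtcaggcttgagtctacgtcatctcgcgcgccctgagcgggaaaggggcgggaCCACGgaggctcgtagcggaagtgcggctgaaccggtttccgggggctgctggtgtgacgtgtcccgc
Srprb (chr9:103202066-103202315, minus strand): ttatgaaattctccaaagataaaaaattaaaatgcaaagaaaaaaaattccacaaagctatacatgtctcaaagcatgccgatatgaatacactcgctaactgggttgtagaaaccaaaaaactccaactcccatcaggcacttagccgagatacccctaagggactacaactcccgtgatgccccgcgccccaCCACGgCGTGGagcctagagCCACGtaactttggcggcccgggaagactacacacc
Ssr1 (chr13:37994209-37994458, minus strand): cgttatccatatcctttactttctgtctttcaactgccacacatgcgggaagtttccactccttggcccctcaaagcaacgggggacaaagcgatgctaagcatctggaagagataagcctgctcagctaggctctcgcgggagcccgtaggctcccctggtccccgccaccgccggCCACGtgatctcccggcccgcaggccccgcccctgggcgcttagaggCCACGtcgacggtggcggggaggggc
Alg14 (chr3:121291490-121291739, plus strand): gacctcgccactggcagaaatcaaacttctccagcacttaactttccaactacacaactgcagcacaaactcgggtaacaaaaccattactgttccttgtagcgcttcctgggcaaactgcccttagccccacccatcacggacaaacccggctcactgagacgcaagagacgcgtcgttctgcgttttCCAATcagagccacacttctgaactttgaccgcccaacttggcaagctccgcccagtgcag
Srpr and Srprb each held 3 copies of CCACG upstream of the start, Ssr1 held 2 and Alg14 held 0. Sec63 and Spcs1, whose log2 fold changes were 0.04 and 0.09, also held 3, and Alg5, at 0.21, held 2. These are matches of letters, and no binding was measured.

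The channel itself gave the lowest value of the list. Sec61a1 (ENSMUSG00000030082), the pore-forming subunit, had 253.1 and 245.5 RPKM with TUDCA and 361.0 RPKM in DMSO. The TUDCA libraries stood close together and both below DMSO, at a log2 fold change of -0.53 ± 0.20 (SE), a 95% interval of -0.92 to -0.14 and a limma adjusted p of 0.164 (unadjusted p = 0.00774). Its adjusted p ranged between 0.052 and 0.543 over the settings tried, the lowest after correction for GC content and length. The small subunits of the same channel differed less. Sec61b had 113.8 and 91.0 RPKM with TUDCA and 120.1 RPKM in DMSO, and Sec61g had 60.6 and 59.1 RPKM with TUDCA and 62.8 RPKM in DMSO. The level of Sec61a1 was therefore 4.17 and 4.15 times that of Sec61g with TUDCA and 5.75 times in DMSO, and 2.22 and 2.70 times that of Sec61b with TUDCA and 3.01 times in DMSO, per length. These ratios were not tested.

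The paralog Sec61a2 was a minor part of the pore transcripts. It had 8.46 and 9.31 RPKM with TUDCA and 11.3 RPKM in DMSO, so that Sec61a1 made up 96.8% and 96.3% of the pair with TUDCA and 97.0% in DMSO. Sec62 and Sec63, membrane partners of the channel that serve post-translational entry and, in the case of Sec63, recruit the chaperone BiP, had DMSO values between those of the TUDCA libraries. Sec63 had 29.1 and 20.6 RPKM with TUDCA and 23.8 RPKM in DMSO, and Sec62 had 32.2 and 27.1 RPKM with TUDCA and 30.4 RPKM in DMSO. Tram1, which assists the insertion of some chains, had 70.2 and 50.6 RPKM with TUDCA and 67.2 RPKM in DMSO. Its paralog Tram2 stood at 5.63 and 5.05 RPKM with TUDCA and 5.40 RPKM in DMSO, and Tram1 held 92.6% and 90.9% of the pair with TUDCA and 92.6% in DMSO. Hspa5, which encodes BiP, the luminal chaperone that pulls chains inward, had 787.7 and 580.9 RPKM with TUDCA and 1807 RPKM in DMSO. Its log2 fold change was -1.42 ± 0.20 (SE) (limma adjusted p = 1.94e-10), which rests on a spread pooled over genes and a single DMSO library. Without the expression filter no gene was called, Hspa5 included. The difference of Hspa5 from the channel genes was not tested.

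**Figure D2:**
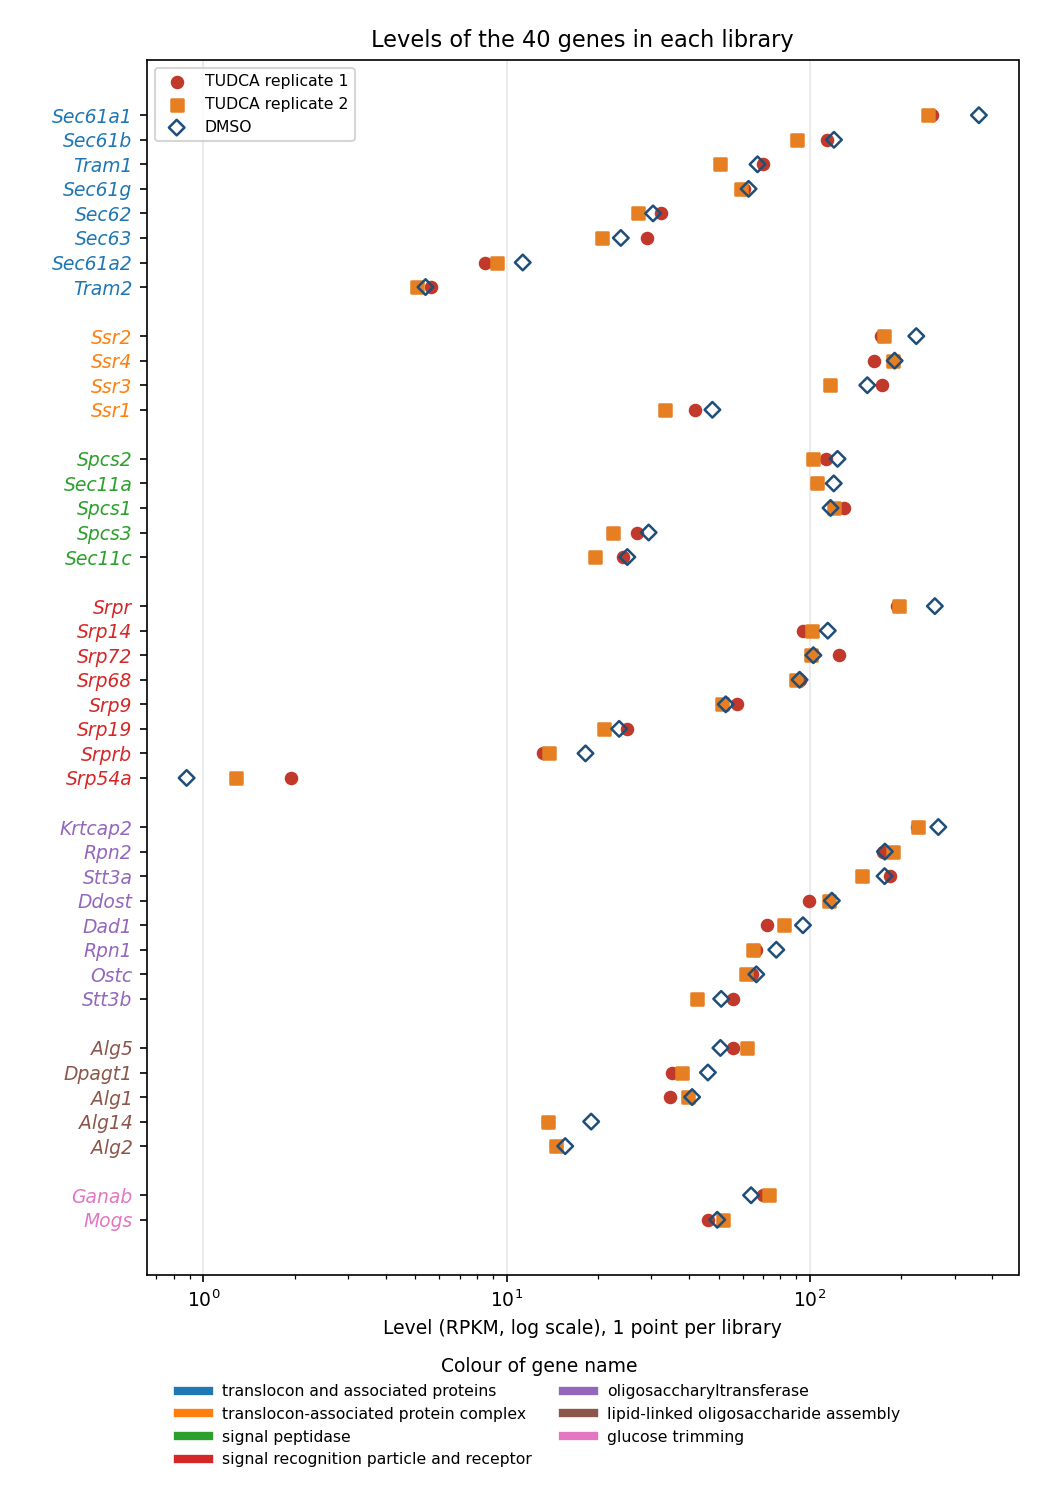
Level (RPKM, log axis) of each of the 40 genes in TUDCA replicate 1, TUDCA replicate 2 and DMSO, 1 point per library, with gene names coloured by role. Levels span 0.88 RPKM for Srp54a to 361.0 RPKM for Sec61a1, both in DMSO, and for most genes the 3 points lie close together relative to that span.

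The 4 subunits of the translocon-associated protein complex (TRAP), which sits beside the channel and helps weakly gating signal sequences, had a median log2 fold change of -0.23. Ssr2 had 171.5 and 175.7 RPKM with TUDCA and 224.4 RPKM in DMSO, a log2 fold change of -0.37 with an interval of -0.77 to 0.03. Ssr1 had 41.8 and 33.3 RPKM with TUDCA and 47.7 RPKM in DMSO. Of the 4 subunits, 3 (Ssr1, Ssr2 and Ssr4) were lower in both TUDCA libraries, against 30.4% of all genes tested. Ssr3 had 173.6 and 116.2 RPKM with TUDCA and 154.7 RPKM in DMSO, the widest gap between the TUDCA libraries among the 40 genes (0.58 on the log2 scale, against a median gap of 0.20 over all genes tested). Ssr4 stood at 163.0 and 188.3 RPKM with TUDCA and 190.4 RPKM in DMSO. The median of the complex was -0.21 in TUDCA replicate 1 and -0.38 in TUDCA replicate 2.

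Signal peptidase had 4 of 5 genes lower in both TUDCA libraries, against 30.4% of all genes tested, and a median log2 fold change of -0.20. The lowest was Spcs3, a subunit needed for the catalytic activity, with 26.9 and 22.4 RPKM with TUDCA and 29.4 RPKM in DMSO. The highest was the accessory subunit Spcs1, with 129.5 and 119.9 RPKM with TUDCA and 117.0 RPKM in DMSO, the only gene of the complex higher in both, although its log2 fold change of 0.09 was -0.01 after the GC and length correction. Of the 2 alternative catalytic subunits, Sec11a had 105.4 RPKM in each TUDCA library and 119.9 RPKM in DMSO. Sec11c had 24.2 and 19.5 RPKM with TUDCA and 25.0 RPKM in DMSO. Sec11a held 81.3% and 84.4% of the pair with TUDCA and 82.7% in DMSO. Spcs2 stood at 112.9 and 102.6 RPKM with TUDCA and 123.4 RPKM in DMSO.

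Among the targeting factors, both subunits of the SRP receptor were lower in both TUDCA libraries, against 30.4% of all genes tested. The genes of the particle itself spread around DMSO, and the difference between receptor and particle was not tested. Srpr, the subunit that meets the particle, had 194.3 and 197.2 RPKM with TUDCA and 258.4 RPKM in DMSO (log2 fold change -0.40 ± 0.20 (SE), unadjusted p = 0.0484, limma adjusted p = 0.459). Srprb, the membrane-anchored partner, had 13.2 and 13.8 RPKM with TUDCA and 18.2 RPKM in DMSO, also a log2 fold change of -0.40, with an interval of -0.92 to 0.11. Srpr exceeded Srprb in level 14.8 and 14.2 times with TUDCA and 14.2 times in DMSO, per length. Of the protein subunits of the particle, Srp14 was the only one lower in both TUDCA libraries, at 94.9 and 101.9 RPKM with TUDCA and 114.6 RPKM in DMSO. Srp9, its partner in the domain that pauses translation, had 57.5 and 51.4 RPKM with TUDCA and 52.8 RPKM in DMSO. Srp68 and Srp72, which bind each other on the particle's RNA, had log2 fold changes of -0.02 and 0.13, and Srp19, an assembly factor of the particle, -0.04.

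Srp54a, the subunit that binds the signal sequence, had the highest log2 fold change of the list and by far the fewest reads. It stood at 1.94 and 1.28 RPKM with TUDCA and 0.88 RPKM in DMSO, which correspond, as the smallest whole numbers that can give these values, to 42 and 30 reads with TUDCA and 21 reads in DMSO. The log2 fold change was 0.46 ± 0.32 (SE), with an interval of -0.16 to 1.09 and a limma adjusted p of 0.693, and it was 0.82 ± 0.47 (SE) by voom (adjusted p = 0.554). Mouse Srp54a has near-identical copies, so its share of the reads is uncertain. Its copy Srp54c had 0.202 and 0.0745 RPKM with TUDCA and 0.183 RPKM in DMSO. By contrast, 36 of the 40 genes had more than 200 reads in every library by the same measure.

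**Figure D3:**
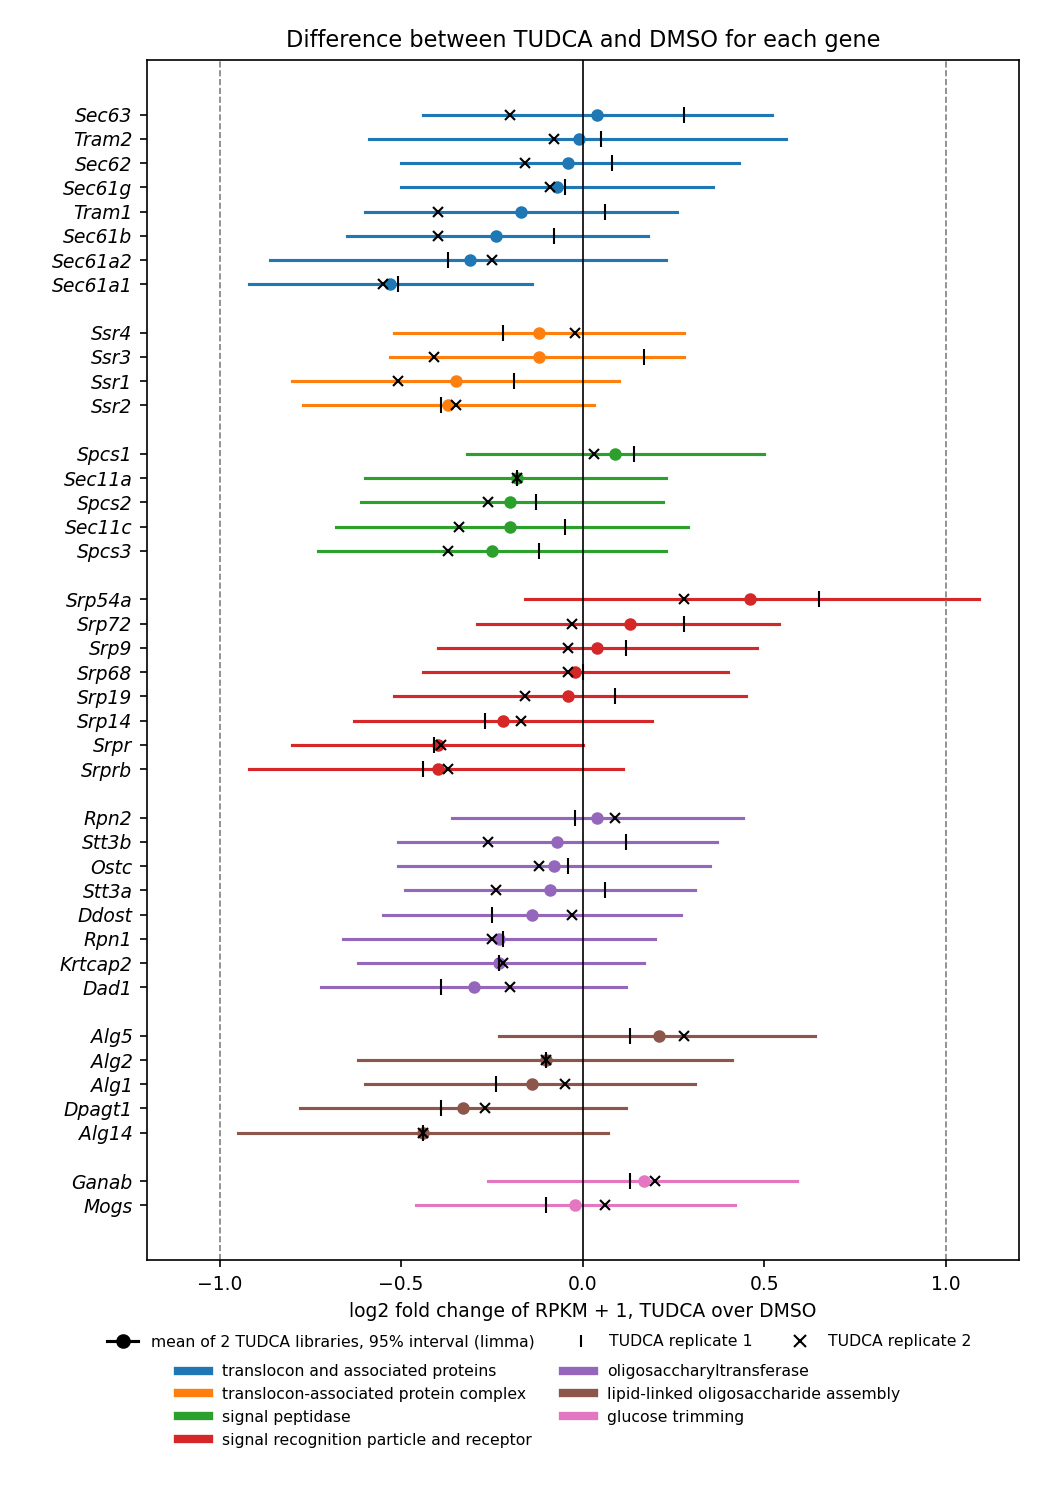
Log2 fold change of RPKM + 1, TUDCA over DMSO, for each gene, grouped by role: the filled point is the mean of the 2 TUDCA libraries with its 95% limma interval, the tick is TUDCA replicate 1 and the cross TUDCA replicate 2. The point estimates run from -0.53 for Sec61a1 to 0.46 for Srp54a, and only the interval of Srp54a crosses the dashed line at 1, while none of these limma intervals crosses the line at -1.

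The 8 OST genes had a median log2 fold change of -0.12 and a range of -0.30 to 0.04. The median was -0.21 without TUDCA replicate 1, -0.19 with median centring or the GC and length correction, and -0.06 with quantile normalization. Dad1, a small structural subunit, was the lowest, at 72.0 and 82.4 RPKM with TUDCA and 94.9 RPKM in DMSO. Rpn2 was the highest, at 174.9 and 188.4 RPKM with TUDCA and 176.8 RPKM in DMSO. Neither passed the test. The catalytic subunits mark separate enzymes: Stt3a serves chains as they enter through Sec61 and Stt3b sites that were skipped. Stt3a had 183.5 and 148.8 RPKM with TUDCA and 176.4 RPKM in DMSO, and Stt3b had 55.6 and 42.4 RPKM with TUDCA and 51.0 RPKM in DMSO. Both followed the same order over the libraries, so that Stt3a held 76.8% and 77.8% of the pair with TUDCA and 77.6% in DMSO. Krtcap2 and Ostc, which tie the Stt3a enzyme to the channel, differed in level. Krtcap2 had 225.6 and 227.7 RPKM with TUDCA and 265.3 RPKM in DMSO, and Ostc had 64.5 and 61.4 RPKM with TUDCA and 66.6 RPKM in DMSO. The shared subunits Rpn1 and Ddost had log2 fold changes of -0.23 and -0.14. Per length, the levels of the 8 genes spanned 51.0 to 265.3 RPKM in DMSO.

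Among the 5 genes that build the sugar tree on dolichol, 4 were lower in both TUDCA libraries, against 30.4% of all genes tested, and Alg5 was higher in both, against 40.5%. Alg14, the membrane anchor of the enzyme that adds the second N-acetylglucosamine, had 13.7 RPKM in each TUDCA library and 19.0 RPKM in DMSO (log2 fold change -0.44, interval -0.95 to 0.07, or -1.14 to 0.22 by voom). Dpagt1, which starts the tree and is the target of tunicamycin, had 35.0 and 38.0 RPKM with TUDCA and 46.1 RPKM in DMSO (log2 fold change -0.33). Alg1 and Alg2, mannosyltransferases of the cytosolic face, had log2 fold changes of -0.14 and -0.10. Alg5, which makes the dolichol-linked glucose donor for the last additions, had 55.7 and 62.0 RPKM with TUDCA and 50.7 RPKM in DMSO (log2 fold change 0.21, limma adjusted p = 0.870). Of the trimming enzymes, Ganab was higher in both TUDCA libraries, and the DMSO value of Mogs lay between those of the TUDCA libraries. Ganab, the catalytic subunit of glucosidase II, had 70.3 and 73.5 RPKM with TUDCA and 64.0 RPKM in DMSO, and Mogs, glucosidase I, had 46.0 and 51.8 RPKM with TUDCA and 49.5 RPKM in DMSO.

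Summed by role, the translocon group had 573.2 and 508.3 RPKM with TUDCA and 681.9 RPKM in DMSO, or 0.841 and 0.745 of the DMSO sum, the lowest ratio in each library among the 7 roles. Sec61a1 weighs most in that sum, with 253.1 and 245.5 RPKM with TUDCA and 361.0 RPKM in DMSO. The median log2 fold change of the 8 translocon genes was 0.0 in TUDCA replicate 1 and -0.23 in TUDCA replicate 2. Of them, 4 were lower in both TUDCA libraries, against 30.4% of all genes tested. For the other 4 the DMSO value lay between those of the TUDCA libraries. The OST sum was 941.9 and 932.0 RPKM with TUDCA and 1027 RPKM in DMSO, and the glucose trimming sum was 116.3 and 125.3 RPKM with TUDCA and 113.5 RPKM in DMSO, the only role above DMSO in both TUDCA libraries. All 40 genes together made 3338 and 3194 RPKM with TUDCA and 3690 RPKM in DMSO, or 0.905 and 0.866 of the DMSO sum. The sum over all genes tested was 0.981 and 1.01 of DMSO.

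**Figure D4:**
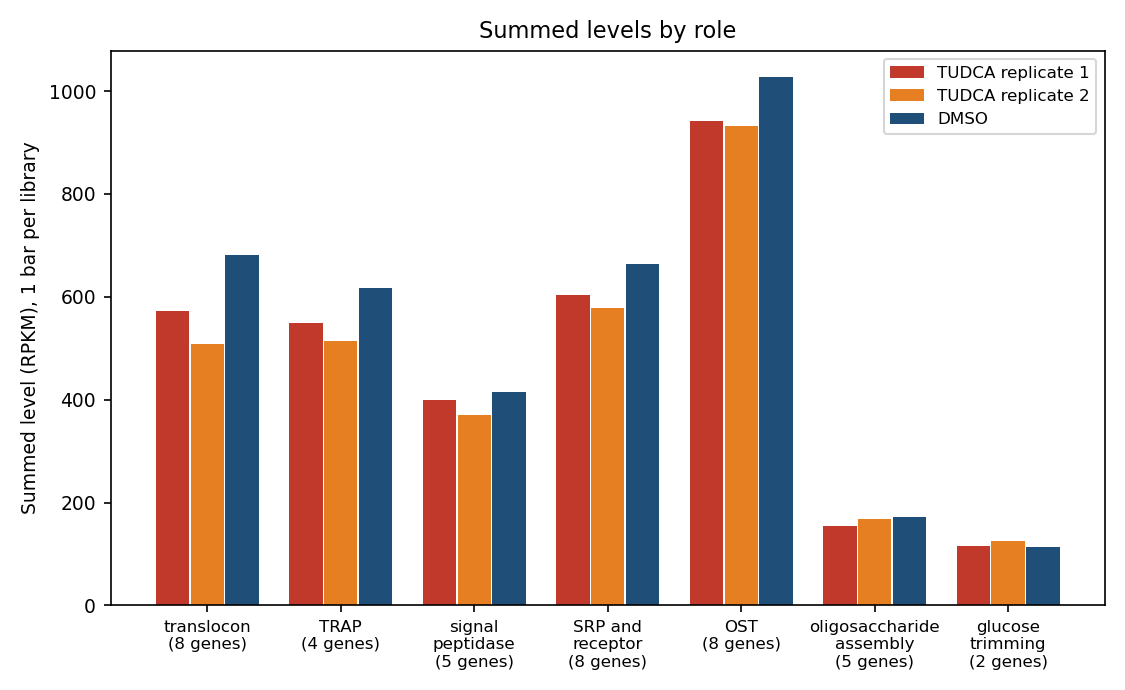
Summed level (RPKM) of the genes of each role in TUDCA replicate 1, TUDCA replicate 2 and DMSO, 1 bar per library without error bars (TRAP, translocon-associated protein complex; OST, oligosaccharyltransferase; SRP, signal recognition particle). The translocon bars stand at 573.2 and 508.3 RPKM with TUDCA and 681.9 RPKM in DMSO, and the glucose trimming bars at 116.3 and 125.3 RPKM with TUDCA and 113.5 RPKM in DMSO.

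Genes of the same pathway and of neighbouring ones were counted from 9 further lists of 89 genes, of which 83 were matched and tested. The neighbouring lists were tail-anchored protein insertion, the ER membrane protein complex, Golgi N-glycan processing and the COPII coat. None of the 83 was called, with 5 at an unadjusted p under 0.05 (3 lower and 2 higher, against 473 lower and 743 higher of all 11300 genes) and none called by voom on whole reads. Both TUDCA libraries were lower than DMSO for 39 of the 83, against 30.4% of all genes tested, and higher for 20, against 40.5%, with a median log2 fold change of -0.06. The nearest to a call was Alg12, the luminal mannosyltransferase of the late tree, with 17.4 and 16.7 RPKM with TUDCA and 30.4 RPKM in DMSO (log2 fold change -0.80 ± 0.25 (SE), limma adjusted p = 0.0529). Limma called Alg12 lower with a pseudocount of 0.1 at an adjusted p of 0.0468, with median centring at 0.0342 and with values corrected for GC content and length at 0.019. It was not called in the other settings with a test. There its limma adjusted p was 0.509 without the filter and 0.117 without the variance trend, and 0.0594 by voom. Nus1, a subunit of the enzyme that makes dolichol's precursor, had 48.2 and 40.7 RPKM with TUDCA and 61.8 RPKM in DMSO and was called lower only with that correction (limma adjusted p = 0.0429).

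The remaining lists held no call in any setting tried. Of the OST genes outside the 40, Ost4 had 140.0 and 147.4 RPKM with TUDCA and 183.7 RPKM in DMSO, and Tmem258 had 94.2 and 97.5 RPKM with TUDCA and 115.6 RPKM in DMSO. In the supply of sugar nucleotides, Pmm1, a phosphomannomutase, had 283.4 and 258.8 RPKM with TUDCA and 345.5 RPKM in DMSO. Mpi, which makes mannose 6-phosphate from fructose 6-phosphate, had 60.2 and 67.7 RPKM with TUDCA and 46.2 RPKM in DMSO. For the insertion of tail-anchored proteins, Get4 had 153.3 and 159.1 RPKM with TUDCA and 219.9 RPKM in DMSO (log2 fold change -0.49, limma adjusted p = 0.258). Sgta, a chaperone that hands over such proteins, had 97.4 and 110.5 RPKM with TUDCA and 128.8 RPKM in DMSO. In the Golgi, the sialyltransferase St6gal1 had 237.6 and 219.3 RPKM with TUDCA and 165.0 RPKM in DMSO (log2 fold change 0.47, limma adjusted p = 0.304). Mgat5, a branching enzyme, had 6.36 and 4.58 RPKM with TUDCA and 6.55 RPKM in DMSO.

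Of 12 genes of the COPII coat, which carries cargo out of the ER, 8 were lower in both TUDCA libraries, against 30.4% of all genes tested, 3 (Sar1b, Sec24a and Sec16a) were higher in both, against 40.5%, and none passed the test. The lowest log2 fold changes were those of 2 of its 4 cargo-binding Sec24 subunits, Sec24d with 24.3 and 21.4 RPKM with TUDCA and 31.1 RPKM in DMSO, and Sec24b with 60.8 and 55.0 RPKM with TUDCA and 77.9 RPKM in DMSO. The 10 genes of the ER membrane protein complex, an insertase for membrane proteins, had a median log2 fold change of -0.02. They ranged between -0.21 for Emc8, with 11.2 and 12.5 RPKM with TUDCA and 13.8 RPKM in DMSO, and 0.23 for Emc2, with 9.55 and 7.22 RPKM with TUDCA and 6.93 RPKM in DMSO. Among the helpers of the channel, Hm13, the signal peptide peptidase, had 147.3 and 180.6 RPKM with TUDCA and 198.1 RPKM in DMSO. Tmco1, part of the translocon for multipass proteins, had 16.1 and 12.4 RPKM with TUDCA and 11.9 RPKM in DMSO. In glucose trimming, Prkcsh, the regulatory subunit of glucosidase II, had 157.3 and 184.9 RPKM with TUDCA and 198.5 RPKM in DMSO. Uggt2, a glucosyltransferase homologous to the folding sensor Uggt1, had 1.88 and 0.749 RPKM with TUDCA and 0.918 RPKM in DMSO.

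A correction of the fold changes for GC content and transcript length left the call count of the 40 genes at 0 but moved the unadjusted values. After it, 10 of the 40 genes were lower at an unadjusted p under 0.05, against 9.79% of all 11149 genes with a transcript in the annotation. These were Alg14, Sec61a1, Ssr1, Srprb, Srpr, Sec61a2, Dad1, Spcs3, Dpagt1 and Ssr2, with adjusted p between 0.052 and 0.266. The correction was fitted to each TUDCA library separately, so it can also remove spread between them and make p-values smaller. Over all genes, in either direction, 1216 had an unadjusted limma p under 0.05 before it and 2044 after it.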

How the data were processed

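The authors deposited RPKM values per Ensembl gene, 1 table per library. Tools listed in the submitters' processing notes, with no role, are TopHat2 2.0.7, Bowtie2, HTSeq and CASAVA. Genome build, annotation and strand setting were not stated, so overlapping antisense genes cannot be separated. Symbols came from GENCODE M21, and 3 genes of the further lists and 1 marker matched through a RefSeq synonym. RPKM values kept whole reads: for all 19146 genes above 0, a length gave whole numbers within 1e-09 reads. The smallest such numbers make up 95.7 to 95.8% of the totals, and a gene may hold a multiple.

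Genes averaging 1 RPKM or more were tested as log2(RPKM + 1) with limma 3.58.1 (trend) in R 4.3.3, Benjamini-Hochberg over 11300 genes, threshold 0.05. This scale understates changes of low genes. The only residual degree of freedom is the TUDCA pair, DMSO is assumed to vary like it, and each gene takes a pooled SD (0.159 to 0.265). Tested on simulated reads, this fit made more false calls than its threshold allows, mostly of genes with few reads, and voom did not. Calls and intervals of such genes are therefore less certain than printed. The simulated reads had the same dispersion in every gene and library, DMSO included. They therefore cannot show that voom keeps to its threshold in these data. Of the 299 genes called, voom also called 227. The members, lists and tests were chosen with earlier results of these data known. Named with values in every library are the highest and lowest log2 fold change per role, the paralog pairs and, per further list, the 2 genes of largest absolute change; other named members were added after their values were seen. Alternatives covered the pseudocount, filter, scaling, variance model, voom, a spline correction on GC content and longest-transcript length, and leaving out either TUDCA library.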

Additional observations from a re-analysis of the deposited data

How the results depend on the processing

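No member was called under any of the 10 alternatives with a test. The fold changes could not differ without the filter, with a 5 RPKM filter, without the variance trend or with robust estimation. These settings use the same values, and Srp54a was not tested with the 5 RPKM filter. Over the remaining alternatives with a test, 34 of the 40 kept the sign of their log2 fold change throughout. Those that changed sign were near 0: with median centring Sec63 was at -0.03, Srp9 at -0.03 and Rpn2 at -0.04. After the GC and length correction Sec63 was at -0.10, Spcs1 at -0.01, Srp9 at -0.03 and Mogs at 0.02, and with quantile normalization Srp68 was at 0.06. The median of the 40 genes was -0.21 with median centring, where all genes had -0.04. It was -0.19 without TUDCA replicate 1, against -0.09 when the other TUDCA library was left out. The count over all genes, 299, was 0 without the filter (1696 of 19146 at an unadjusted p under 0.05). The further lists had 1 call with a pseudocount of 0.1, 1 with median centring and 2 after the GC and length correction, all lower, in place of 0. The cause of these shifts was not tested. Leaving out a TUDCA library gives values without a test, and the DMSO library cannot be left out. No paired analysis was possible because the DMSO library stands alone and carries no replicate number. Depth limits Srp54a, whose 21 reads in DMSO leave a wide interval.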
